A study of Mus musculus with 16 samples.

Results

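Transcripts of 6 voltage-gated sodium channel subunits were followed in CA1, a subfield of the mouse hippocampus. The subunits were the pore-forming alpha subunits Scn1a, Scn3a and Scn8a and the auxiliary beta subunits Scn2b, Scn3b and Scn4b. They were chosen by gene symbol from the 17986 genes listed for both environments, and all 6 were found. Values were FPKM, fragments per kilobase of transcript scaled to the depth of the library. Levels of different genes can be set side by side, but values still moved with transcript length between the environments, as given below. The 10 libraries were made from CA1 of male mice aged 3 to 6 months, cut out of 8 µm sections of unperfused frozen brain with a laser. All mice were of the C57Bl6 strain and were labelled wild type or N3 -/-, the latter for Neil3, which encodes a DNA glycosylase of base excision repair. Mice of the home cage groups (2 libraries per genotype label) had no intervention. The spatial exploration groups had 3 libraries per genotype label, and the protocol attached to the samples describes open field sessions of 20 min per day over 1 week, with death 20 min after the last one. The labels do not tie each library to a separate animal, so p-values measure the spread between libraries. A further 6 samples labelled as a learning condition were not analysed here.

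The alpha subunit of a voltage-gated sodium channel forms the pore and carries the voltage sensors and the fast inactivation gate, and the channels start and propagate the action potential. Beta subunits are single-pass membrane proteins with an immunoglobulin-like domain that alter gating, trafficking and cell adhesion. Scn2b and Scn4b proteins are bound to the alpha subunit by a disulfide bond, whereas Scn3b protein associates without one. Channels gather at the axon initial segment and at nodes of Ranvier, where ankyrin G, encoded by Ank3, anchors them.

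Neil3 values went against the genotype labels. The Neil3 transcript did not exceed 0.05 FPKM in the 5 libraries with the wild type label. In the 5 with the N3 -/- label it ranged from 8.35 to 15.22 FPKM. The groups are therefore called WT-labelled and KO-labelled, and every genotype direction below is that of the label. The summed FPKM was 405718 to 466701 per library, and the depth estimated from the spacing of low values was 18800000 to 20100000 fragments. Of 7 CA1 pyramidal markers, 6 were at 1 FPKM or more in every library, and the list summed to 774 to 935 FPKM. Of 8 dentate granule markers, 5 (Prox1, C1ql2, Tdo2, Glis3 and Dsp) stayed below 1 FPKM in every library, whereas C1ql3 was at 41.13 to 77.17 FPKM and Lct at 1.06 to 22.29 FPKM, and the list summed to 63.7 to 82.4 FPKM. The home cage and exploration values stand in separate blocks of the deposited table. Rn18s, an 18S ribosomal RNA gene, ranged from 1714.68 to 2398.35 FPKM in the former and from 5.69 to 10.56 FPKM in the latter. An effect of exploration and a difference between the blocks cannot be told apart.

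The beta subunit Scn3b was the most abundant of the 6 transcripts and the alpha subunits were lower. In the WT-labelled home cage group Scn3b was at 228 FPKM ± 12.1, Scn2b at 78.5 ± 7.59 and Scn8a at 51.9 ± 4.45 (SD, n = 2). Scn1a (12.1 ± 0.325) and Scn4b (11.3 ± 3.55) overlapped there, and Scn3a was lowest at 4.96 ± 0.0636. The order Scn3b, Scn2b, Scn8a held in all 4 groups with no overlap between neighbours. The lower ranks differed between groups in the place of Scn4b. Scn4b was lowest in the KO-labelled home cage group, at 2.58 FPKM ± 1.82 (n = 2), below Scn3a (4.45 ± 0.311). In both exploration groups it stood above Scn1a, with no overlap. Scn2a1, the file's name for the alpha subunit gene Scn2a, was not a member and was at 34.05 to 40.77 FPKM over the 10 libraries. The alpha genes Scn4a, Scn7a, Scn9a, Scn10a and Scn11a, known mainly from muscle, glia or peripheral neurons, did not exceed 0.16 FPKM in any library.

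**Figure D1:**
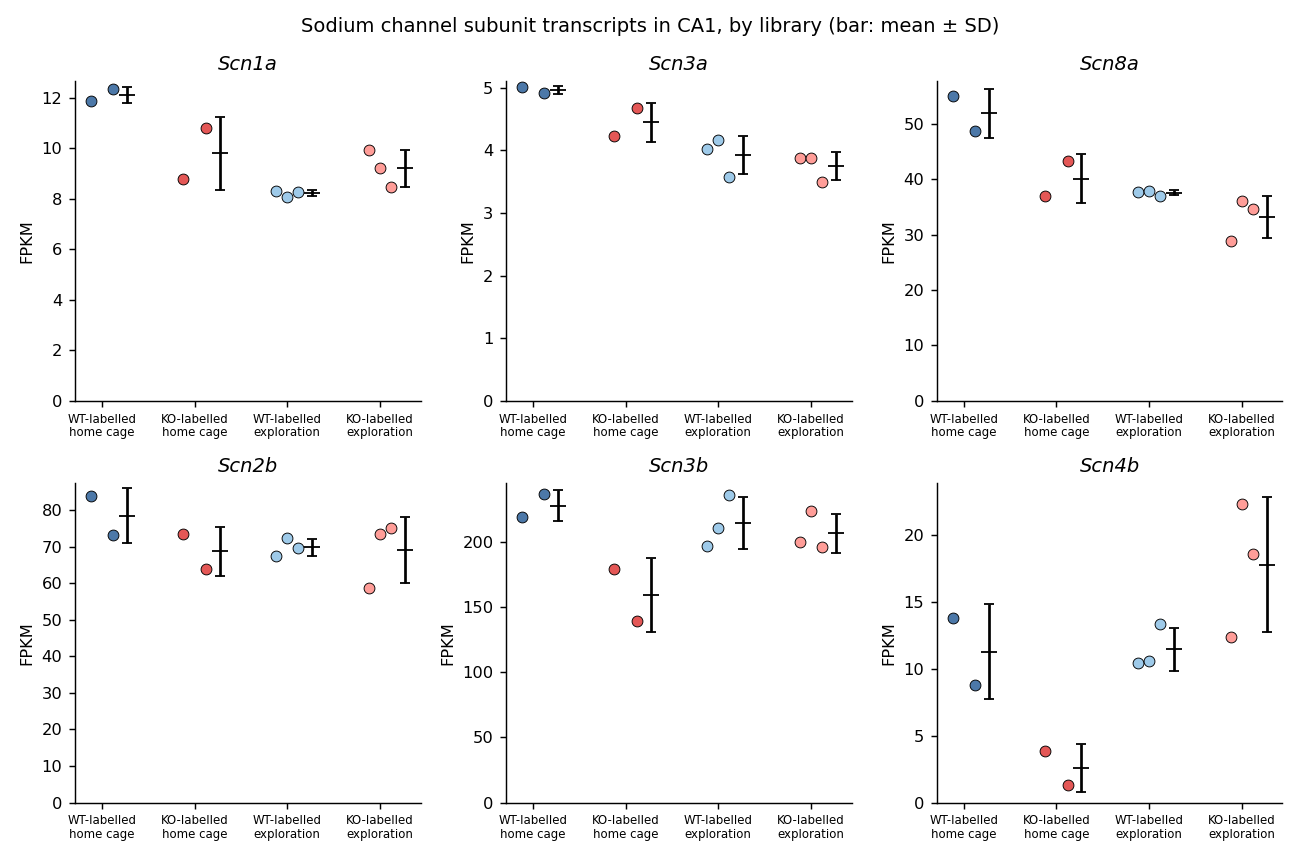
FPKM of each subunit transcript (vertical axes, from 0) in the 4 groups (horizontal axes). Points are libraries and bars are mean ± SD. Scn4b reaches down to 1.29 FPKM in the KO-labelled home cage group and up to 22.36 FPKM in the KO-labelled exploration group.

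Scn4b was the subunit that varied most. Its protein carries a cytoplasmic segment that can block the open pore and is tied to resurgent sodium current in several fast-firing neurons. Over the 10 libraries its highest value was 17.3 times its lowest, against 1.43 to 1.91 times for the other 5 members. The SD of its log2(FPKM + 1) values was 0.99, and 0.362% of the 11892 tested genes had a larger one. The other members had SDs of 0.14 (Scn2b) to 0.26 (Scn8a).

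In the home cage, Scn4b measured 13.8 and 8.78 FPKM in the WT-labelled pair of libraries and 3.87 and 1.29 FPKM in the KO-labelled pair. Both KO-labelled libraries lay below both WT-labelled ones, and the lowest value still rested on an estimated 122 fragments. After exploration it measured 10.45, 10.58 and 13.32 FPKM under the WT label and 12.4, 22.36 and 18.6 FPKM under the KO label. Those groups overlapped, with 2 KO-labelled libraries above every other library of the series. Each gene was tested with limma on log2(FPKM + 1), and was called at a Benjamini-Hochberg adjusted p under 0.05 over all 11892 tested genes. In the KO-labelled libraries Scn4b was higher after exploration by 2.45 on this scale (SE 0.3, 5.48-fold in FPKM + 1, limma adjusted p 0.000951). The libraries of these 2 groups did not overlap. Leaving out each of the 10 libraries in turn kept the call, with changes of 1.91 to 3 (limma adjusted p at most 0.0172). In the WT-labelled libraries the difference was 0.04 (95% interval -0.61 to 0.69, limma adjusted p 0.955), with overlapping libraries.

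The difference between the 2 labelled genotypes in the exploration response of Scn4b was itself tested. It was 2.41 (SE 0.42, 95% interval 1.49 to 3.34, limma adjusted p 0.0496), so Scn4b was 1 of 6 members called, where 0.875% of tested genes were called. This call was close to the threshold and was not made with a pseudocount of 0.1 (2.84, adjusted p 0.0591), no filter on low values (2.41, 0.147), no variance trend (2.41, 0.0664) or robust empirical Bayes (2.41, 0.0589). It was lost without WT-labelled home cage library 1 (2.11, adjusted p 0.223), KO-labelled home cage library 2 (1.87, 0.194), WT-labelled exploration library 1 (2.36, 0.138) or 2 (2.36, 0.122), and KO-labelled exploration library 2 (2.24, 0.124) or 3 (2.36, 0.0687). The other 5 members had differences of 0.08 (Scn3a) to 0.47 (Scn3b), none called.

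Scn4b lies on chromosome 9 at 45138624 to 45154155 (GRCm38, plus strand), and Scn2b is its neighbour at 45117876 to 45130070 on the same strand, 8553 bases away. Both genes stand as 1 RefSeq transcript each in the deposited table. The neighbours did not vary alike: Scn2b ranged from 58.61 to 83.87 FPKM and was called in none of the 6 comparisons. Their promoter windows are shown because they differ in composition as well. Each is the 250 bases before the RefSeq start (GRCm38.p6, plus strand), with CG dinucleotides in capitals. The Scn4b window at chr9:45138374-45138623 holds 23 CG dinucleotides and is 66.0% G or C.
Scn4b: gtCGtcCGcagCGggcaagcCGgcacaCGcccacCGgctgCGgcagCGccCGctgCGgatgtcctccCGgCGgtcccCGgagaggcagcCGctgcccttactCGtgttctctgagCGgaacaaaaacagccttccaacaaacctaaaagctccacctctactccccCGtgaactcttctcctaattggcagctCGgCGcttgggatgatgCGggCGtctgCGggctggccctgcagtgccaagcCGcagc
The Scn2b window at chr9:45117626-45117875 holds 1 CG dinucleotide and is 38.4% G or C.
Scn2b: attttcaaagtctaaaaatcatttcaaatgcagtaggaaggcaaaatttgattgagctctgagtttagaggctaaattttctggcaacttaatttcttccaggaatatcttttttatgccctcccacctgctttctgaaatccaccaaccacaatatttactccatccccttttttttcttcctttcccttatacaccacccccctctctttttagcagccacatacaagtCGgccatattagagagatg
The median over 32851 RefSeq promoter windows was 6 CG dinucleotides and 52.4% G or C. The Scn1a window holds 4 and the 2 Scn8a windows hold 30 and 9. On both strands these windows were searched for the CRE core TGACG, the AP-1 motif TGANTCA, the EGR core GCGTGG and the E-box CACGTG, bound by factors of the neuronal activity response or of the basic helix-loop-helix family. The motifs do not contain one another and were counted separately. None of these letters occurs in the Scn4b, Scn2b, Scn1a or Scn8a windows. Over all windows 17.8%, 6.7%, 13.5% and 6.0% held them.

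In the home cage comparison of the genotype labels, all 6 members were lower in the KO-labelled libraries on average, and 2 fell past the threshold. The median log2 difference of the members was -0.33, against -0.02 over all tested genes. The members called were Scn4b (-1.85, SE 0.33, limma adjusted p 0.0186) and Scn3b (-0.52, SE 0.13, limma adjusted p 0.043). Of all tested genes 3.57% were called in either direction and 1.45% were called lower. Libraries of the 2 groups did not overlap for 5 of 6 members, all lower. The same held for 46.9% of tested genes in either direction and for 25.9% in the lower one.

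Scn3b, a beta subunit that slows inactivation of several alpha subunits in expression systems, was at 219.27 and 236.43 FPKM in the WT-labelled home cage libraries. Under the KO label it measured 179.52 and 139.07 FPKM, and the groups did not overlap. The call on Scn3b was lost without WT-labelled home cage library 1 (-0.578, adjusted p 0.197) or 2 (-0.47, 0.197), KO-labelled home cage library 2 (-0.341, 0.234), WT-labelled exploration library 1 (-0.524, 0.0615) or 2 (-0.524, 0.0687), or KO-labelled exploration library 2 (-0.524, 0.0593), and under 4 other settings (adjusted p 0.0608 to 0.123). The call on Scn4b was lost without WT-labelled home cage library 1 (-1.55, adjusted p 0.172) or KO-labelled home cage library 2 (-1.3, 0.122), or with no filter on low values (-1.85, 0.0863).

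The alpha subunits were lower by smaller amounts. Scn8a, which encodes the main channel of the distal initial segment and of nodes in adult neurons, was at 55.04 and 48.75 FPKM against 36.97 and 43.29 FPKM. The KO-labelled libraries lay below the WT-labelled ones, but the difference of -0.36 did not pass over all genes (SE 0.11, limma adjusted p 0.108). It passed without KO-labelled exploration library 1 (-0.365, adjusted p 0.042), which enters through the shared spread. Scn1a, the alpha subunit whose loss impairs firing of parvalbumin interneurons, was at 11.88 and 12.34 against 8.78 and 10.8 FPKM (-0.29, SE 0.11, limma adjusted p 0.185). Scn3a, most prominent in the embryonic brain, differed by -0.13 and Scn2b by -0.19, neither called.

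CA1 markers also differed in those home cage libraries. Wfs1 measured 218.93 and 192.41 FPKM under the WT label against 127.3 and 64.88 FPKM under the KO label, in the same order of libraries as Scn4b (log2 change -1.17, limma adjusted p 0.0358). Dcn moved the other way, from 0.2 and 0.69 to 2.82 and 27.24 FPKM (2.87, limma adjusted p 0.0391). Mpped1 of the CA1 list was also called higher (0.42, limma adjusted p 0.0387). Wfs1 and Dcn are known to be graded along the hippocampal axis. The sum of the 7 CA1 markers was 848 to 849 FPKM and 774 to 843 FPKM. Astrocyte markers had higher means in the KO-labelled group in 7 of 7, with 3 called and sums of 206 to 238 against 129 to 141 FPKM. Microglia markers had higher means in 7 of 7 (1 called, sums of 68.8 to 73 against 52.6 to 58.6 FPKM), oligodendrocyte markers in 8 of 8 (0 called, 2 at an unadjusted p under 0.05, 204 to 242 against 150 to 177 FPKM) and endothelial markers in 5 of 6 (1 called, 43 to 48.9 against 36.8 to 38.6 FPKM). Of 7 tested CA2 markers 6 had lower means, none called and 3 at an unadjusted p under 0.05, with Pcp4 at -1.99 and sums of 180 to 192 against 187 to 331 FPKM. Of 4 tested CA3 markers 3 had lower means, none called, with sums of 19.4 to 28.9 against 19.6 to 51.8 FPKM. Of 3 tested dentate granule markers 2 had higher means and 1 a lower one, which was Lct, called lower (-2.33, limma adjusted p 0.0217). All 5 tested thalamus and habenula markers had lower means, with sums of 10.3 to 13.8 against 20.7 to 24.3 FPKM. Plekhg1 of that list was called lower (-1.88, limma adjusted p 0.00774). Of 3 tested subiculum markers 2 had higher means and 1 a lower one. Nts of that list was called higher, at 1.82 and 3.56 against 0 and 0.47 FPKM (1.56, limma adjusted p 0.0192). Their part in the subunit differences was not tested. In bulk tissue, fewer cells of a type and less RNA per cell cannot be told apart. Of 7 striatal markers, Drd1, Drd2 and Adora2a were at most 0.36 FPKM in every library and the other 4, led by Ppp1r1b at 24.95 to 46.23 FPKM, were at 1 FPKM or more, for sums of 54.8 to 66.2 FPKM. Of 5 choroid plexus markers, 4 stayed below 1 FPKM in every library. The other, Ttr, measured 218.7 and 3.89 FPKM under the WT label against 4.24 and 0.73 FPKM in the home cage. After exploration it measured 118.06, 93.56 and 2.38 against 0.23, 0.04 and 2.35 FPKM. Ttr was not called between labels in either environment (limma adjusted p 0.316 and 0.161), and its part in the subunit differences was not tested.

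After exploration, no member was called between the genotype labels by limma. At an unadjusted p under 0.05 the count was also 0, and 0.597% of tested genes were called. Scn4b showed the largest difference, 0.56 higher in the KO-labelled libraries (SE 0.27, 95% interval -0.02 to 1.15, limma adjusted p 0.305). Scn8a measured 37.78, 37.88 and 37.02 FPKM under the WT label against 28.8, 36.1 and 34.59 FPKM under the KO label, without overlap (-0.18, SE 0.09, limma adjusted p 0.338). Scn1a was higher in the KO-labelled libraries, at 9.93, 9.2 and 8.47 against 8.29, 8.07 and 8.28 FPKM (0.14, SE 0.09, limma adjusted p 0.423). These 2 of 6 members had libraries that did not overlap, as did 24.9% of tested genes. Intervals for Scn3a, Scn2b and Scn3b lay within -0.28 and 0.19.

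Averaged over both environments, 0 of 6 members were called by limma, where 2.13% of tested genes were, and 3 members had an unadjusted p under 0.05. Scn8a was lower by label in both environments (-0.27, SE 0.07, 95% interval -0.43 to -0.11, limma adjusted p 0.0716). Scn3b (-0.29, limma adjusted p 0.0824) and Scn4b (-0.64, limma adjusted p 0.122) were also lower on average. Without KO-labelled home cage library 1 both of these were called (-0.38, adjusted p 0.0362, and -0.915, adjusted p 0.043).

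**Figure D2:**
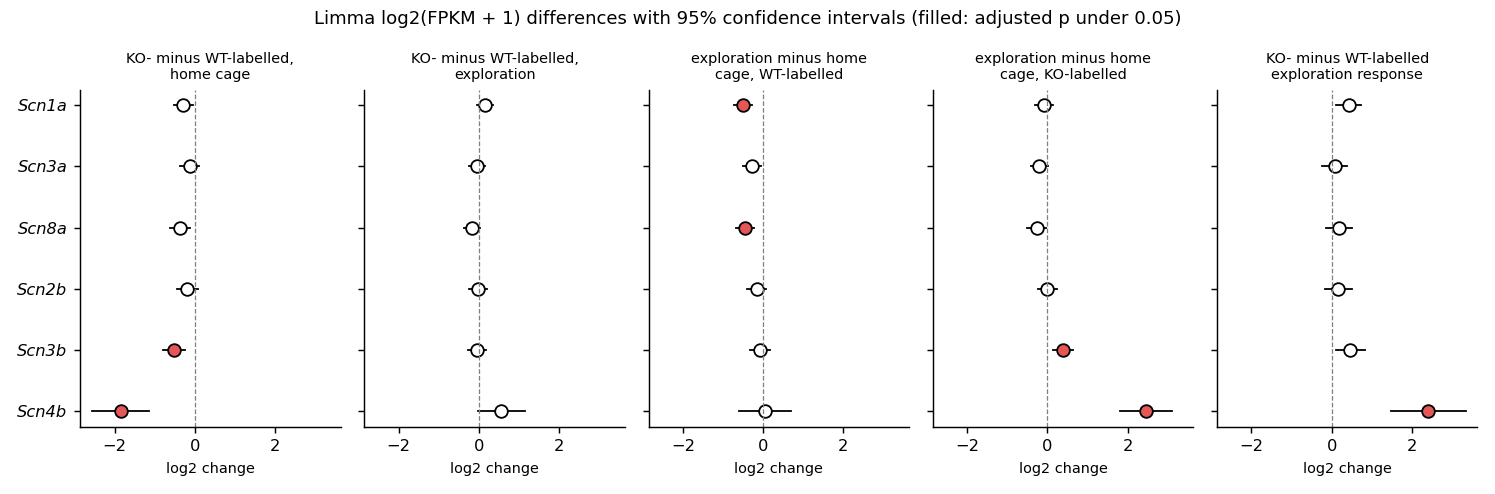
Log2(FPKM + 1) differences (horizontal axes) of the 6 subunits (vertical axis) in 5 comparisons, with 95% confidence intervals. Filled points passed an adjusted p of 0.05, and the Scn4b points at -1.85, 2.45 and 2.41 lie farthest from 0.

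In the WT-labelled libraries the alpha subunits were lower after exploration than in the home cage. No beta member was called, with differences of -0.16 (Scn2b), -0.09 (Scn3b) and 0.04 (Scn4b). Scn1a fell from 11.88 and 12.34 to 8.29, 8.07 and 8.28 FPKM (-0.51, SE 0.1, limma adjusted p 0.0143). Scn8a fell from 55.04 and 48.75 to 37.78, 37.88 and 37.02 FPKM (-0.45, SE 0.1, limma adjusted p 0.0266). In both genes every exploration library lay below every home cage library. Scn3a went from 5.01 and 4.92 to 4.02, 4.17 and 3.58 FPKM, without overlap or a call (-0.28, SE 0.1, limma adjusted p 0.123). Of the 6 members 2 were called, both lower, where 6.31% of tested genes were called and 4.29% were called lower. Libraries did not overlap for 4 of 6 members, Scn2b included, all lower. The same held for 47.8% of tested genes in either direction and for 28.1% in the lower one.

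Both calls depended on single libraries. Scn1a lost its call without WT-labelled home cage library 1 (-0.534, adjusted p 0.0718) or 2 (-0.483, 0.159) or WT-labelled exploration library 1 (-0.515, 0.0549) or 2 (-0.497, 0.0507). Scn8a lost it without WT-labelled home cage library 1 (-0.368, adjusted p 0.174) or 2 (-0.539, 0.112) or WT-labelled exploration library 1 (-0.458, 0.085), 2 (-0.46, 0.0704) or 3 (-0.443, 0.0739), and with no filter on low values (-0.454, 0.0679).

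Transcript length moved with this comparison. The transcripts of the 3 alpha members are 8386 nt (Scn1a), 8550 nt (Scn3a) and 11293 nt (Scn8a) long, and those of the beta members 3958 to 4982 nt. Of the 604 tested genes with a transcript of 8000 nt or more, 91.1% were lower after exploration in the WT-labelled libraries, with a median of -0.24, and 85.9% in the KO-labelled ones, with a median of -0.3. Of the 735 genes under 1000 nt, 14.6% and 22.2% were lower. With the trend on transcript length removed from each library, an alternative chosen after seeing the data, Scn1a was at -0.303 (limma adjusted p 0.0851), Scn8a at -0.187 (0.256) and Scn3a at -0.0691 (0.735). Between genotype labels the long genes had medians of -0.04 in the home cage and -0.07 after exploration. In the WT-labelled libraries oligodendrocyte markers were higher after exploration as well, with 5 of 8 called and sums of 212 to 389 against 150 to 177 FPKM. Astrocyte and microglia markers had higher means in 7 of 7 each, with 3 called in each list, and sums of 160 to 204 against 129 to 141 FPKM and of 64.8 to 77.5 against 52.6 to 58.6 FPKM. Of 10 interneuron markers 1 was called, Sst, at 92.84 to 148.38 against 56.78 to 62.98 FPKM, and the list summed to 330 to 389 against 245 to 269 FPKM. Their part in the alpha subunit differences was not tested.

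In the KO-labelled libraries the beta subunits Scn3b and Scn4b were higher after exploration and no alpha member was called. Scn3b rose from 179.52 and 139.07 to 200.1, 223.99 and 196.02 FPKM (0.38, SE 0.11, limma adjusted p 0.029). The exploration libraries lay above both home cage libraries, and they overlapped the WT-labelled ones of both environments. The call on Scn3b was lost without KO-labelled home cage library 2 (0.2, adjusted p 0.323) or KO-labelled exploration library 2 (0.324, 0.0839), with no filter on low values (0.383, 0.072), under quantile normalization (0.231, 0.138) and with only the compared groups fitted (0.383, 0.0743). With Scn4b, 2 of 6 members were called, both higher, where 28.6% of tested genes were called and 12% were called higher. Libraries did not overlap for 4 of 6 members, as for 52.1% of tested genes.

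The alpha members differed less in these libraries. Scn8a was at 36.97 and 43.29 before and 28.8, 36.1 and 34.59 FPKM after (-0.27, SE 0.1, limma adjusted p 0.0699). Without KO-labelled home cage library 1 it was called (-0.381, adjusted p 0.0403). Scn3a differed by -0.2 (limma adjusted p 0.155) and Scn1a by -0.08 (limma adjusted p 0.586). With the length trend removed all 3 had positive signs, at 0.0533, 0.0561 and 0.174, none called, whereas Scn4b and Scn3b stayed called at 2.59 (limma adjusted p 0.00102) and 0.473 (0.0181). The CA1 markers Wfs1 and Spink8 were also higher in the KO-labelled libraries after exploration (1.1 and 0.77), and Fibcd1, Mpped1, Man1a and Dcn were lower, all called by limma. The CA2 list, which includes Pcp4, had 3 of 7 tested markers called higher, with sums of 222 to 345 against 180 to 192 FPKM. Of 4 tested CA3 markers 2 were called higher and 1 lower, with sums of 45.6 to 71.9 against 19.4 to 28.9 FPKM. Their part in the rise of Scn4b was not tested.

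**Figure D3:**
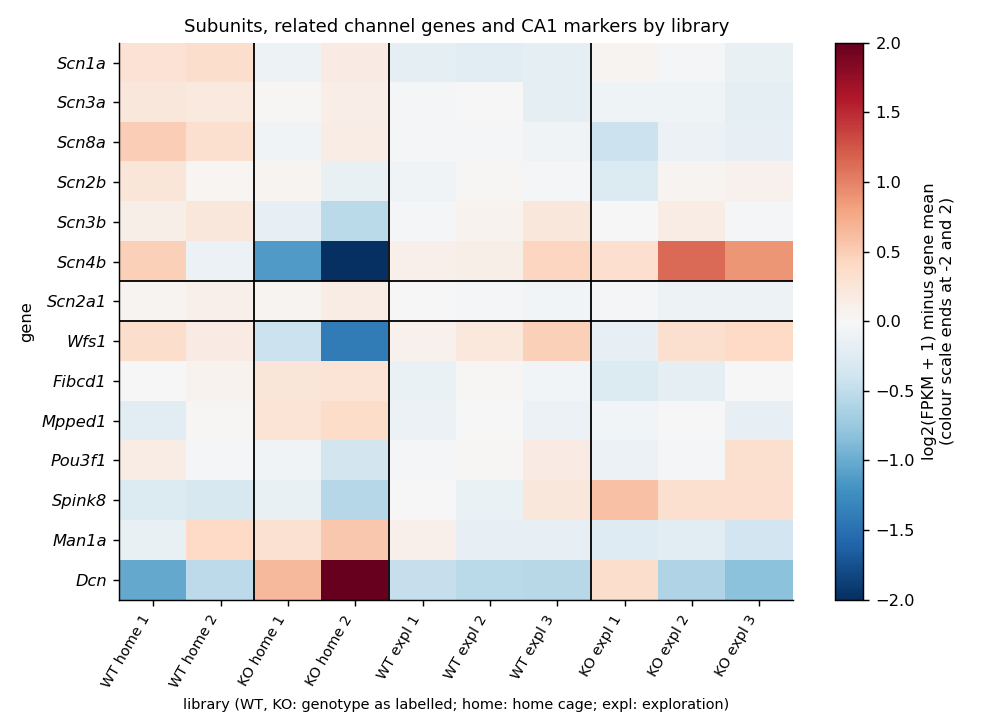
Log2(FPKM + 1) minus the gene mean (colour, clipped at -2 and 2) for 6 members, Scn2a1 and 7 CA1 markers (rows) in 10 libraries (columns). Scn4b, Scn3b and Wfs1 are lowest in KO-labelled home cage library 2, where Dcn is highest.

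Across the 10 libraries the alpha members varied together, with Pearson r of log2(FPKM + 1) of 0.81 (Scn1a and Scn3a), 0.67 (Scn1a and Scn8a) and 0.83 (Scn3a and Scn8a). Among the beta genes Scn4b was close to Scn3b (r 0.81), but less so to its neighbour Scn2b (r 0.33). Between Scn4b and the alpha members r was -0.22 to -0.47, and between Scn4b and the alpha gene Scn2a1 it was -0.82. Scn2a1 had r of 0.65 to 0.85 with the alpha members. These values describe 10 libraries that share the 4 groups and the 2 blocks. Transcripts of the alpha members and of Scn2a1 are all longer than 8000 nt, and values moved with transcript length between the blocks. The part of length in these r values was not tested. By Pearson r the tested genes most like Scn4b were Mpped2, Tpm1 and B2m (r 0.98 each). Those most like Scn3b were AI593442 (r 0.97), Rnf39 and Ppp1r14c (r 0.96 each), and those most like Scn2b were Camta2 (r 0.93), Plekhh3 (0.91) and B4galt3 (0.9). Closest to Scn1a were Trappc8 (r 0.98), Zmym5 and Ammecr1l (0.95 each), closest to Scn3a were Zscan26 (0.99), Zfp871 and Akap13 (0.98 each), and closest to Scn8a were Thbd (0.99), Tctn1 and Ryr2 (0.97 each).

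Of the channel partners outside the membership, Nalcn was called between genotype labels in the home cage. Sptbn4 and Aph1b were called after exploration and on average. Of all tested genes 3.57% were called between labels in the home cage, 0.597% after exploration and 2.13% on average. Scn2a1 differed by 0.02 between genotype labels in the home cage, without a call. Nalcn, the sodium leak channel, was higher in the KO-labelled home cage libraries, at 14.63 and 18.26 against 10.51 and 11.95 FPKM (0.51, SE 0.12, limma adjusted p 0.0472). That call held without KO-labelled home cage library 1 or KO-labelled exploration library 1 or 3, and was lost without each of the other 7 (0.356 to 0.592). It was also lost with a pseudocount of 0.1 (adjusted p 0.0503), no filter on low values (0.116), no variance trend (0.0623) and only the compared groups fitted (0.0872). Between labels after exploration Nalcn differed by 0.13 (limma adjusted p 0.547), with overlapping libraries. In the KO-labelled libraries Nalcn was called lower after exploration (-0.419), where 28.6% of tested genes were called. That call was lost with only the compared groups fitted (adjusted p 0.0602) and with the trend on transcript length removed (-0.204, 0.151). Leaving out KO-labelled home cage library 2 also ended it (-0.269).

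Of 13 genes of the axon initial segment and node, Sptbn4 was called lower in the KO-labelled libraries after exploration. Sptbn4 encodes beta-IV spectrin, which ties ankyrin G to the actin rings of the initial segment. In the exploration libraries it measured 34.74, 37.96 and 37.92 FPKM under the WT label and 26.35, 27.13 and 22.36 FPKM under the KO label (-0.53, SE 0.09, limma adjusted p 0.0281), and was also called on average over both environments (-0.46, limma adjusted p 0.0105). The libraries did not overlap in either environment, with 42.21 and 41.68 against 29.28 and 34.31 FPKM in the home cage. The exploration call was lost without any 1 of the 3 WT-labelled exploration libraries or KO-labelled exploration library 3 (adjusted p 0.0577 to 0.113), and the averaged one without WT-labelled home cage library 1 (0.0597). With no filter on low values neither Sptbn4 call was made (adjusted p 0.0836 and 0.0522), and with no variance trend the exploration call was not (0.0515). Among 8 tested secretase genes, whose products cleave beta subunits, Aph1b of the gamma-secretase complex was called higher after exploration (0.5, limma adjusted p 0.0319) and on average (0.41, limma adjusted p 0.0175). Its exploration call was lost without any 1 of the WT-labelled exploration libraries or KO-labelled exploration library 1 or 2 (0.447 to 0.54), and the averaged one without either WT-labelled home cage library (0.44 and 0.389). With no filter on low values neither Aph1b call was made (adjusted p 0.0716 and 0.0526), and with only the compared groups fitted the exploration call was not (0.054). No gene of the 4 fibroblast growth factor homologous factors, which bind the alpha subunit tail, or of the 10 channel regulators was called between genotype labels by limma. In those 2 lists the counts at an unadjusted p under 0.05 were 1 and 2 in the home cage, and 3 and 2 after exploration.

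In the exploration response of the WT-labelled libraries 0 of the 13 initial segment and node genes were called by limma, 7 had an unadjusted p under 0.05, and 11 were lower. Of all tested genes 6.31% were called there and 4.29% were called lower, and of those with a transcript of 8000 nt or more 91.1% were lower. In the KO-labelled libraries 8 of 13 were called, all lower, where 28.6% of tested genes were called and 16.6% were called lower, and the median was -0.29 against -0.04 over all tested genes. The largest falls were in Nrcam (-0.59, limma adjusted p 0.00233) and Cntn2 (-0.51, 0.0095), cell adhesion molecules of the node and its flanks, and in the potassium channel gene Kcna2 (-0.47, 0.01) and the node adhesion gene Nfasc (-0.44, 0.0202). Leaving out KO-labelled home cage library 2 ended the calls on Cntn2 (-0.473), Kcna2 (-0.348) and Nfasc (-0.294). With the length trend removed 2 of the 13 were called lower and 1 higher, with a median of -0.06, where 25.6% of tested genes were called. Nrcam kept its call there (-0.403, adjusted p 0.00478), and Cntn2 (-0.298, 0.0542), Kcna2 (-0.138, 0.208) and Nfasc (-0.152, 0.269) lost theirs. The Nfasc call was also lost with no filter on low values (adjusted p 0.0528) and with only the compared groups fitted (0.0595). Fgf11 fell from 17.82 and 25.7 to 12.98, 10.18 and 7.36 FPKM in the KO-labelled libraries (-1.04, SE 0.23, limma adjusted p 0.00796) while Fgf12 and Fgf13 rose (0.4 and 0.25). The call on Fgf11 was lost when KO-labelled home cage library 2 was left out (-0.784, adjusted p 0.13). Scn2a1 was lower after exploration in both labelled genotypes (-0.11 and -0.18), without a call, and with the length trend removed both signs turned (0.104 and 0.0783).

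**Figure D4:**
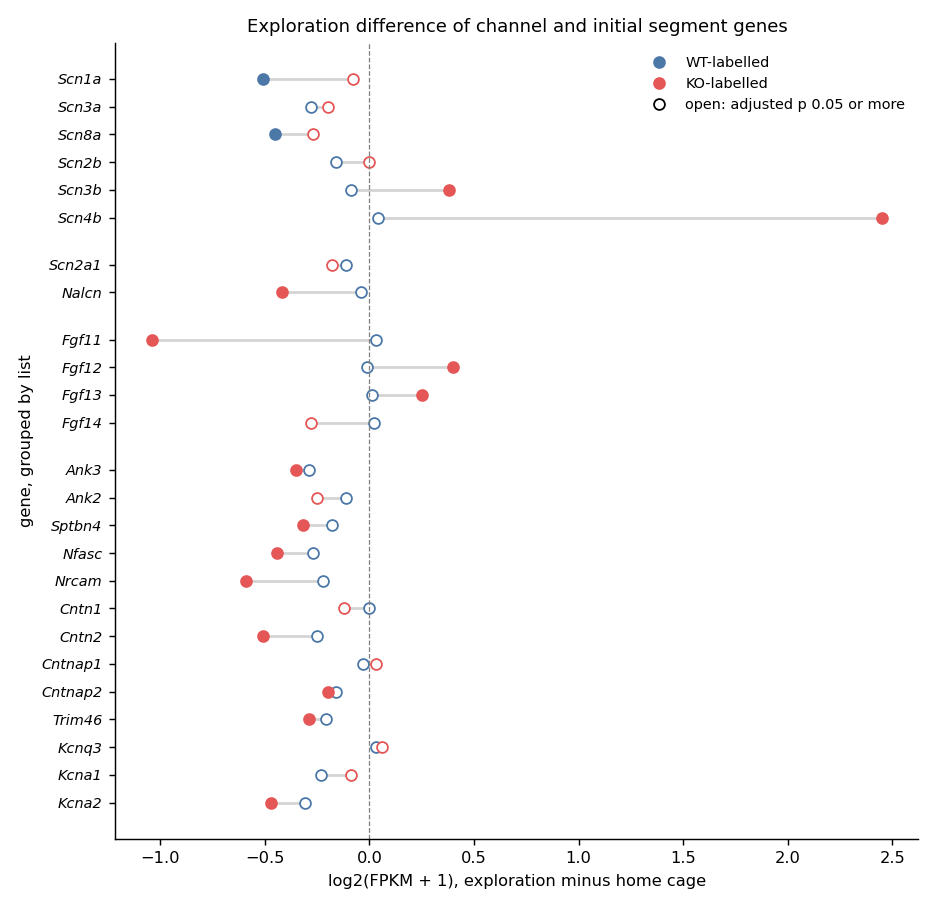
Log2(FPKM + 1) difference of exploration minus home cage (horizontal axis) for the members and related genes by list (vertical axis), in WT-labelled (blue) and KO-labelled (red) libraries. Filled points passed an adjusted p of 0.05. Scn4b at 2.45 and Fgf11 at -1.04 in the KO-labelled libraries mark the extremes.

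Scn1a, Scn3a, Scn2b and Scn3b each overlap an annotated gene on the opposite strand in GENCODE M21. Whether fragments were counted by strand is not given in the sources used here, so a contribution of those transcripts was not tested. Of these, Gm10684, opposite Scn2b, is in the deposited table and was listed at 0 in all 10 libraries. The other members lie at chromosome 2, 66270781 to 66440837 (Scn1a) and 65457118 to 65567591 (Scn3a), both on the minus strand, at chromosome 15, 100869863 to 101045938 (Scn8a, plus strand), and at chromosome 9, 40269216 to 40291618 (Scn3b, plus strand). Scn1a and Scn3a lie in one cluster of alpha genes with Scn2a, whose coding sequences are similar, and how fragments shared between them were assigned is not given in the sources used here.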

How the data were processed

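CA1 RNA in 10 libraries was read as pairs on a BGISEQ instrument, per the labels' protocols. The authors deposited FPKM per gene and library in 2 blocks, with 19156 genes for exploration and 18257 for the home cage. The submitters' processing notes name HISAT, StringTie, GATK, Bowtie2 and RSEM and the builds GRCm38 and mm10, with no role or version. Blocks were joined on gene ID (17986 genes), and 11892 genes reaching 1 FPKM in 2 or more libraries were tested with limma 3.58.1 in R 4.3.3 on log2(FPKM + 1). This scale understates changes of low genes. All 10 libraries shared 1 fit with 4 group means (6 residual degrees of freedom) and a prior variance trend. The fit was tested on simulated data. Adjusted p-values are Benjamini-Hochberg over all tested genes.

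FPKM with 2 decimals do not return whole counts, so count models were not used. An estimate of depth came from how low values are spaced, given GENCODE M21 lengths.

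The members, gene lists and tests were chosen with earlier results of these data known. Named were the members, other sodium channel genes at 1 FPKM or more, up to 6 called list genes per comparison with the largest changes, and the 3 genes most like each member. Marker genes are named beside results they move with, chosen after their values were seen. Promoter windows (RefSeq, GRCm38.p6) matched 4 of 6 members. A few listed genes are not reported here and were left out of list counts.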

Additional observations from a re-analysis of the deposited data

Results flagged for a closer look

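The exploration response of Scn4b differed between the labelled genotypes by 2.41 on the log2(FPKM + 1) scale (limma adjusted p 0.0496), with a change of 2.45 in the KO-labelled and 0.04 in the WT-labelled libraries. The test was the interaction of genotype label and environment over 10 libraries. The same 2.41 is the change of the genotype difference between environments, from -1.85 in the home cage to 0.56 after exploration.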

How the results depend on the processing

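Counts of called members depended on the settings. In the home cage genotype comparison (2 called) the count was 0 with no filter on low values and 1 with size factors, no variance trend or only the compared groups, and 0 to 3 when libraries were left out in turn. Averaged over environments (0 called) it was 1 under quantile normalization and 0 to 2 with libraries left out. For exploration in the WT-labelled libraries (2 called) it was 1 with no filter, 0 with the length trend removed and 0 to 2 with libraries left out. In the KO-labelled libraries (2 called) it was 1 with no filter, quantile normalization or only the compared groups, and 1 to 3 with libraries left out. For the difference in response (1 called) it was 0 with a pseudocount of 0.1, no filter, no variance trend or robust empirical Bayes, and 0 to 2 with libraries left out. It was 0 after exploration between genotype labels throughout. No filter tests more genes, but why the counts moved under this or any other setting was not tested.

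Signs turned for small, uncalled differences. Under quantile normalization Scn3a was at 0.0135 between labels after exploration, and Scn2b at -0.0815 in the KO-labelled exploration response. With the length trend removed Scn3a was at 0.000739 and Scn2a1 at 0.00428 between labels after exploration, Scn2a1 at 0.0173 on average and at 0.104 and 0.0783 in the WT- and KO-labelled exploration responses, and Scn1a, Scn3a and Scn8a at 0.174, 0.0561 and 0.0533 in the latter. With libraries left out in turn, signs turned for Scn2a1 between labels in the home cage (-0.0267 to 0.0727) and on average (-0.0381 to 0.0116), and for Scn2b (-0.0871 to 0.0889) and Scn3b (-0.113 to 0.0188) between labels after exploration. They turned for Scn4b in the WT-labelled exploration response (-0.257 to 0.34) and for Scn1a (-0.213 to 0.0582) and Scn2b (-0.0962 to 0.115) in the KO-labelled one. Scn4b in the KO-labelled response was called under all 8 planned settings, at 2.45 to 2.89. No paired analysis was possible because the labels give no replicate numbers shared between groups.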
